A study of Mus musculus with 3 samples.

Results

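*Ccr7* and *Fscn1* mark dendritic cells (DCs) in a mature, migratory state, and in this tumour such cells were found outside as well as inside the deposited table of cDC1s. CCR7 guides DCs along gradients of CCL19 and CCL21 to lymph nodes, and fascin, the product of *Fscn1*, bundles actin in their dendrites. Cells with both transcripts are often called mature regulatory DCs, since they carry costimulatory and inhibitory molecules together, and they can arise from cDC1s and from cDC2s. Described here are 102 such cells among the 30209 barcodes of 3 libraries, called members below. "Outside cDC1s" here means outside that table and without 3 cDC1 transcripts, which does not show that a member is no cDC1. The study placed MCA205 LA-OVA tumours in WT, *sGsn-/-* and *sGsn-/- Clec9a-/-* mice, the last 2 of which lack secreted gelsolin, alone or together with the receptor DNGR-1, and sequenced sorted DCs at day 5. Each genotype is 1 library, from 37 pooled WT mice (25 males, 12 females), 31 pooled *sGsn-/-* mice (15 males, 16 females) and 27 pooled *sGsn-/- Clec9a-/-* mice (10 males, 17 females), aged 6 to 20 weeks. Pre-cDCs, cDC1s and cDC2s were sorted and mixed in set proportions before sequencing, so a share of barcodes is not a share of tumour cells.

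The members were chosen by their counts, as barcodes outside the deposited table of cDC1s with at least 1000 genes, mitochondrial genes under 10% of UMIs, 3 or more UMIs of *Ccr7* (ENSMUSG00000037944, chromosome 11, 99144196 to 99155077, minus strand) and 1 or more of *Fscn1* (ENSMUSG00000029581, chromosome 5, 142960343 to 142973185, plus strand). They also had no UMI of the cDC1 genes *Xcr1*, *Clec9a* and *Tlr3*, of the NK cell genes *Ncr1* and *Klrb1c*, or of the T cell gene *Cd3e*, so the levels of these 8 genes are set by the choice and are no finding. Of 24403 barcodes outside the table, 20378 passed the quality thresholds, 456 of them had 3 or more UMIs of *Ccr7*, and 155 had *Fscn1* as well. A UMI of a cDC1 gene removed 36 of these and a UMI of an NK or T cell gene 17 more, leaving 47 WT, 46 *sGsn-/-* and 9 *sGsn-/- Clec9a-/-* members. The median member carried 31.5 UMIs of *Ccr7* (range 3 to 132) and 11 of *Fscn1* (1 to 98), so most lay well above the threshold. Members had a median of 10858 UMIs, with library medians of 11100, 10858 and 7961, and their 9 *sGsn-/- Clec9a-/-* cells summed to 76817 UMIs against 690642 for WT and 590346 for *sGsn-/-*. In the *sGsn-/- Clec9a-/-* sum 1 UMI is 13.02 CPM, so genes below about 39.1 CPM, or 3 UMIs, are poorly measured there. The library barcodes overlapped little, with 81 found in more than 1 library, 1 of them a member. In the order WT, *sGsn-/-* and *sGsn-/- Clec9a-/-*, which all lists of 3 values follow, *Ccr7* was at 2292, 2644 and 4595 CPM and *Fscn1* at 1155, 1223 and 1575 CPM in the members.

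Comparison groups used the same quality thresholds. The cDC2 gate held 956 cells (521, 178 and 257) outside the table with no UMI of the 6 excluded genes, of *Ccr7* or of *Fscn1*, at least 1 UMI each of *Flt3* and *Sirpa*, and none of *C1qa*, *Cd7* or *Siglech*. *Ccr7+* cDC1s were 90 cells (39, 39 and 12) of the deposited table that met the *Ccr7* and *Fscn1* thresholds, 88 of them in deposited cluster 8, which has 255 cells. The other 5220 cDC1s of the comparison had no UMI of either gene (*Ccr7*-negative cDC1s). Members made up 8.27% (95% interval 6.14 to 10.9) of members and cDC2 gate together in WT, 20.5% (15.4 to 26.4) in *sGsn-/-* and 3.38% (1.56 to 6.33) in *sGsn-/- Clec9a-/-*. *Ccr7+* cDC1s varied in the same order, at 1.79% (1.28 to 2.44), 2.63% (1.88 to 3.58) and 0.726% (0.376 to 1.27) of both cDC1 groups. These intervals cover counting error only, and 1 library per genotype allows no test between genotypes.

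**Figure D1:**
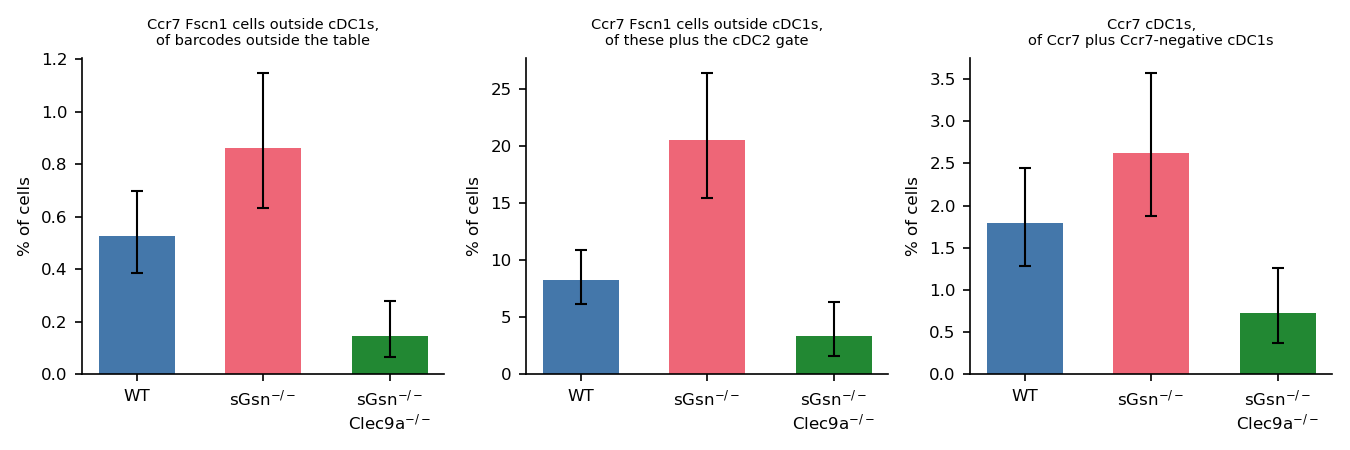
Share of cells in each library with Clopper-Pearson 95% intervals, as percentages of 3 reference populations. Members were 8.27%, 20.5% and 3.38% of members and cDC2 gate together in WT, *sGsn-/-* and *sGsn-/- Clec9a-/-*.

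Beside the cDC2 gate, the members carried the chemokine, costimulatory, inhibitory and NF-κB genes of mature DCs, with more MHC class I and less MHC class II transcript. Several lectin receptors were lower, whereas *Irf8* and *Batf3*, transcription factors that cDC1s depend on, were higher. They are 2 of 14 cDC1 genes tested that were not used to choose the members. Of these 14, 3 were higher, 4 lower and 7 not called. Of 9091 genes tested after the gate genes were set aside, 2755 (30.3%) differed, 1445 (15.9%) higher and 1310 (14.4%) lower in the members. The replicates of a gate are libraries that differ in genotype, so the SD over libraries contains genotype differences. The spread is estimated in 1 fit over sums of 9 to 2135 cells. Errors and p-values may therefore understate the spread of the small member sums, which was not tested. Log2 fold changes come from the quasi-likelihood test in edgeR and are given ± an approximate standard error. This error is the absolute log2 fold change over the square root of the F statistic, and it is rough for genes with few UMIs. Genes are called at a Benjamini-Hochberg adjusted p under 0.05. The direction of the whole set depended on scaling, on the choice of cells and on single libraries. Of called genes, 52.5% were higher here, against 41.6% with DESeq2 size factors and 40.9% with library sizes alone. The share was 46.8% without scored doublets, 40.1% with *Ccr7* at 1 or more UMIs and 44.1% against all *Ccr7*-negative cells. It was 39.9% without *sGsn-/-*, 53.2% without WT and 55.5% without *sGsn-/- Clec9a-/-*. Without the *sGsn-/-* library 852 genes were higher in place of 1445.

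Chemokines that attract T cells were abundant in the members. *Ccl22* (ENSMUSG00000031779, chromosome 8, 94745590 to 94751699, plus strand), a ligand of CCR4 and one of the markers of these cells, was at 1009, 1865 and 2759.8 CPM in members, at 12.5, 18.6 and 12.3 CPM in the cDC2 gate and at 2387, 1345 and 2478 CPM in *Ccr7+* cDC1s. The T cell chemoattractant *Ccl5* (ENSMUSG00000035042, chromosome 11, 83525778 to 83530518, minus strand) was at 5908, 5044 and 4413 CPM in members and 30.1, 32.4 and 40.6 CPM in the cDC2 gate, and the other CCR4 ligand, *Ccl17* (ENSMUSG00000031780, chromosome 8, 94810453 to 94812036, plus strand), at 339, 473 and 963 and 65.9, 125 and 49.2 CPM. All 3 were higher in members of every library, with log2 fold changes of 7.01 ± 0.35, 7.29 ± 0.38 and 2.70 ± 0.30 (adjusted p = 4.9e-14, 1.3e-13 and 1.3e-07, quasi-likelihood test in edgeR, adjusted by the Benjamini-Hochberg method). *Ccl22* took no part in the rule, but it was named as a marker with earlier results of these data known. Its test is therefore no independent support for the choice of members. Of 11 listed chemokines tested, 5 were higher and 1 lower (median log2 fold change 0.46). The CXCR6 ligand *Cxcl16* was higher (1.40 ± 0.15) and the myeloid chemokine *Ccl6* lower (-1.25 ± 0.31). *Cxcl9*, a CXCR3 ligand, was higher (4.23 ± 0.53, 1.51 against all *Ccr7*-negative cells) in 2 of 3 libraries, at 81.1, 110.1 and 0 CPM. It had 3 or more UMIs in 4 members (3.92%). The same held for 149 (1.37%) of 10880 cells outside the table, a smaller set than the 20378 that passed the quality thresholds.

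*Il12b* (ENSMUSG00000004296, chromosome 11, 44400063 to 44414033, plus strand), the p40 subunit of IL-12 and IL-23, was nearly absent from the cDC2 gate, at 0.747, 0.344 and 0.286 CPM, and reached 609.6, 539 and 1002 CPM in members. Its log2 fold change was 10.24 ± 0.37 (adjusted p = 1.3e-16, quasi-likelihood test in edgeR, adjusted by the Benjamini-Hochberg method), with members higher in all 3 libraries. It was not detected in every member, though a cell without a UMI may still carry it. *Il12b* was detected in 51 of 102 members (50%, or 43.9% of those thinned to 4000 UMIs), 0.418% of the cDC2 gate and 93.3% of *Ccr7+* cDC1s, against 1.02% of NK cells (*Ncr1* and *Klrb1c* at 1 or more UMIs) as background, at median depths of 10858, 14115.5, 11183.5 and 9822 UMIs. The lymphocyte growth factor *Il15* and the chain that presents it, *Il15ra*, were also higher (3.20 ± 0.39 and 3.61 ± 0.41). Of 9 listed cytokine genes tested, 3 were higher and 2 lower (median 0.28). The lower ones were the inflammatory *Tnf* (-1.09 ± 0.38, call lost without the *sGsn-/- Clec9a-/-* library and under 3 other alternatives) and the suppressive *Tgfb1* (-0.65 ± 0.15). *Il12a*, *Il27* and *Il10* had no UMI in any member, so the p35 partner of IL-12 was not seen at 0.736 CPM per UMI over all members.

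Members combined costimulatory with inhibitory molecules. Of 12 costimulatory genes tested, 8 were higher and 1 lower (median 1.65). *Cd40*, the receptor for T cell help, was at 201, 156 and 559.8 CPM against 19.1, 24.1 and 18.6 CPM (3.51 ± 0.24), and *Tnfsf4*, which encodes OX40L (ENSMUSG00000026700, chromosome 1, 161395409 to 161418410, plus strand), at 46.3, 76.2 and 247 against 4.98, 2.76 and 4.01 CPM (4.27 ± 0.40). The CD27 ligand *Cd70* (6.25 ± 0.75), the TNF receptors *Tnfrsf4* (6.66 ± 0.48) and *Tnfrsf9* (4.51 ± 0.39), the maturation marker *Cd83* (1.69 ± 0.19), the adhesion molecule *Icam1* (1.61 ± 0.28) and the CD28 ligand *Cd80* (1.29 ± 0.16) were higher too. *Cd48*, a ligand of CD244, was lower (-1.03 ± 0.19), and the other CD28 ligand, *Cd86*, was not called, at 277, 307 and 208 CPM in members and 243, 224 and 213 CPM in the cDC2 gate.

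Of 16 inhibitory or regulatory genes tested, 12 were higher and 4 lower (median 2.75). *Cd274*, which encodes PD-L1, was at 194, 257 and 182 CPM in members and 14.7, 14.1 and 23.5 CPM in the cDC2 gate, and *Cd200* (ENSMUSG00000022661, chromosome 16, 45382135 to 45409053, minus strand), a ligand that restrains myeloid cells, at 527, 418 and 573 and 1.99, 4.13 and 1.14 CPM. The amino acid oxidase *Il4i1* (ENSMUSG00000074141, chromosome 7, 44816387 to 44840809, plus strand, overlapping *Nup62*, *Atf5* and *Tbc1d17*) was at 550.2, 459 and 1224 against 2.24, 3.10 and 5.72 CPM, and the cytokine signalling inhibitor *Socs2* (ENSMUSG00000020027, chromosome 10, 95385362 to 95417180, minus strand) at 304, 296 and 273 against 10.3, 11.7 and 10.3 CPM. All 4 were higher in every library (log2 fold changes 3.81 ± 0.22, 7.86 ± 0.24, 7.59 ± 0.28 and 4.91 ± 0.19), and so were the PD-1 ligand *Pdcd1lg2* (3.77 ± 0.32) and the death receptor *Fas* (4.86 ± 0.36). The lower genes were *Havcr2*, which encodes TIM-3 (-1.31 ± 0.34), its ligand *Lgals9* (-1.18 ± 0.25), the matrix protein *Tgfbi* (-1.25 ± 0.32, not called with DESeq2) and *Socs3* (-0.48 ± 0.18, not called with the stricter *Ccr7* threshold or with all *Ccr7*-negative cells as comparison). *Ido1* and *Ido2*, enzymes of tryptophan breakdown, had no UMI in members. Among 5 genes linked to type 2 responses, *Il2ra*, the high-affinity IL-2 receptor chain (ENSMUSG00000026770, chromosome 2, 11642807 to 11693193, plus strand, overlapping *Gm37881*), was higher (2.56 ± 0.19), as was *Stat6* (0.80 ± 0.19, not called without WT), the TSLP receptor *Crlf2* was lower (-1.07 ± 0.20), and *Tslp* was at 0.

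**Figure D2:**
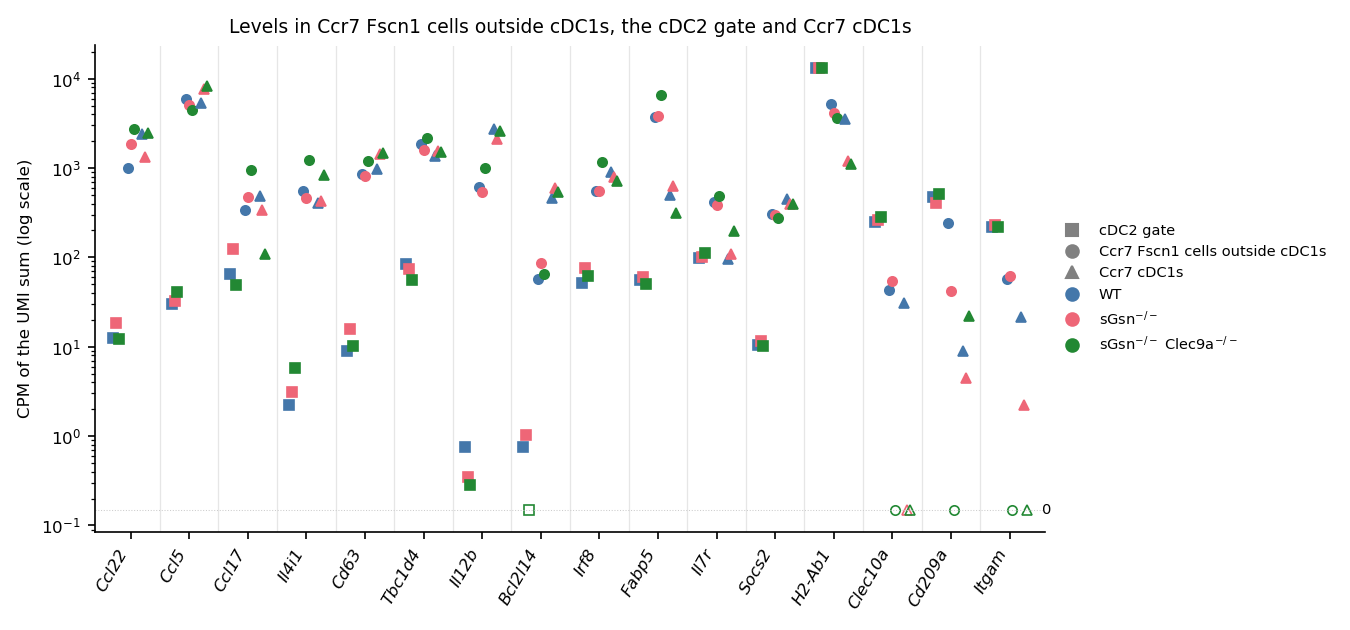
CPM of 16 genes in each library on a logarithmic axis, with the cDC2 gate as squares, members as circles, *Ccr7+* cDC1s as triangles and open symbols for 0 UMIs. *Il12b* lay at 609.6, 539 and 1002 CPM in members and 0.747, 0.344 and 0.286 CPM in the cDC2 gate.

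Most NF-κB genes were higher in members, with 11 of 14 higher and none lower (median 1.16). *Relb* (ENSMUSG00000002983, chromosome 7, 19606217 to 19629438, minus strand), the subunit of the alternative pathway, was at 459, 481 and 612 CPM in members and 46.8, 47.9 and 34.6 CPM in the cDC2 gate (3.59 ± 0.15), and its partner *Nfkb2* at 185, 169 and 195 and 54.7, 49.9 and 51.2 CPM (1.89 ± 0.14). Called with them were the subunits *Rel* (1.69 ± 0.17), *Nfkb1* (0.84 ± 0.15) and *Rela* (0.94 ± 0.17, not called without *sGsn-/-*), the signalling adaptors *Traf1* (2.44 ± 0.17) and *Birc2* (2.94 ± 0.17), and the inhibitors *Nfkbia* (0.90 ± 0.19) and *Tnip1* (0.94 ± 0.22, not called without *sGsn-/-* or after thinning). The promoters of these genes were searched for the 10-base NF-κB consensus, which is found in 4.51% of 32851 mouse promoters. Of 11 listed genes with a promoter entry, 6 had the consensus in at least 1 entry, and 4 of these were called higher, as were all 5 without it, so no link between site and rise is shown. Shown are 250 bases of these 4, before the start given in the RefSeq promoter table (GRCm38.p6, strand of the gene), as the called genes with the site, with the match in capitals. *Nfkb2* has 3 entries, each with the site, and the 1 shown lies inside the gene as GENCODE M21 annotates it, from 46304320.
Nfkb2 chr19:46304487-46304736: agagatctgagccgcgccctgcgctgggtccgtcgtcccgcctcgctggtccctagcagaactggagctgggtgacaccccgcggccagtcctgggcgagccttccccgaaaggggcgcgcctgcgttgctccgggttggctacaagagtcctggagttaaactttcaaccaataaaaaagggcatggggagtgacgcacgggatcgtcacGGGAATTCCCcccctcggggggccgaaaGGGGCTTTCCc
Rel chr11:23770970-23771219: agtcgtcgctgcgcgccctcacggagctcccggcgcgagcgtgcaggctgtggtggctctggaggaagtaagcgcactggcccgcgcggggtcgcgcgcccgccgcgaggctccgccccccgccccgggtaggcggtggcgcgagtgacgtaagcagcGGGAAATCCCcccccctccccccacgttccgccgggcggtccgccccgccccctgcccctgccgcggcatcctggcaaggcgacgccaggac
Nfkbia chr12:55492648-55492897: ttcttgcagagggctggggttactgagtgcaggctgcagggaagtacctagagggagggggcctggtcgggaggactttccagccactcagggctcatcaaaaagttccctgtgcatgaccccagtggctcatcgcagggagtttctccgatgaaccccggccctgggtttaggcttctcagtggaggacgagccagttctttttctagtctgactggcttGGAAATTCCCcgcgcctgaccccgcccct
Tnip1 chr11:54962941-54963190: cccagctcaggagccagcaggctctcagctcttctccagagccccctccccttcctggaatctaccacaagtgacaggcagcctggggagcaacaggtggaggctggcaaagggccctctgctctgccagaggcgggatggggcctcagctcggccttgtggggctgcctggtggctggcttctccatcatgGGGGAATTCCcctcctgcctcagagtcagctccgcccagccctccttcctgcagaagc

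Some survival genes and most actin genes were higher as well. Of 10 survival and death genes, 5 were higher, 3 of them *Bcl2a1* copies, and none lower (median 1.15). *Bcl2l14* (ENSMUSG00000030200, chromosome 6, 134396318 to 134438736, plus strand, overlapping *4933406J09Rik* and *Gm44448*), a member of the BCL2 family, was at 57.9, 86.4 and 65.1 CPM in members and 0.747, 1.03 and 0 CPM in the cDC2 gate (6.91 ± 0.44), *Bcl2a1b*, a prosurvival gene with near-identical copies, was higher by 2.27 ± 0.18, and the caspase-8 inhibitor *Cflar* by 1.67 ± 0.22. Of 9 actin and motility genes besides *Fscn1*, 8 were higher and none lower (median 2.10). The actin cross-linker *Marcks* was at 829.7, 1019.7 and 2330.2 CPM against 121, 145 and 128 CPM (3.29 ± 0.22), and the membrane myosin *Myo1g* (2.19 ± 0.14), the actin-sequestering *Tmsb4x* (1.05 ± 0.21) and cytoplasmic actin *Actg1* (0.90 ± 0.19, not called without *sGsn-/-*) were higher as well.

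Antigen presentation split by class. All 12 genes of MHC class II and its processing were lower (median -1.09). *H2-Ab1* (ENSMUSG00000073421, chromosome 17, 34257689 to 34269419, plus strand), the class II beta chain, was at 5192, 4129.8 and 3671 CPM in members and 13316, 13053 and 13059 CPM in the cDC2 gate, and *Ciita*, the class II transactivator, at 76.7, 57.6 and 26.04 and 159, 177 and 179 CPM. *March1* (ENSMUSG00000036469, chromosome 8, 65617900 to 66471637, plus strand, overlapping *Gm26123*, *Gm15354*, *Gm15355*, *Gm15356*, *Gm23515* and *Gm24205*), the ubiquitin ligase that removes class II from the surface, was at 7.24, 11.9 and 0 against 77.5, 94.4 and 80.4 CPM. Members were lower in all 3 libraries for *H2-Ab1* (-1.53 ± 0.33), *Ciita* (-1.27 ± 0.20), *March1* (-3.11 ± 0.34) and the invariant chain *Cd74* (-1.03 ± 0.27), with adjusted p = 7.9e-04, 2.5e-05, 1.1e-07 and 0.0044 in the quasi-likelihood test in edgeR, adjusted by the Benjamini-Hochberg method. Of 11 class I genes, 10 were higher and 1 lower (median 0.78). *B2m*, the class I light chain, was at 2250.1, 2341 and 2291 CPM against 1186, 1232 and 1264 CPM (0.96 ± 0.18), and the class I transactivator *Nlrc5* (2.17 ± 0.33), the peptide transporter *Tap1* (0.93 ± 0.18, 2 of 3 libraries) and *H2-K1* (0.78 ± 0.17, not called without *sGsn-/-*) were higher too. The peptide trimmer *Erap1* was lower (-0.85 ± 0.30, call lost in 4 alternatives).

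Most genes for capturing antigen were lower in the members. Of 13 uptake and lectin receptor genes tested, 9 were lower and none higher (median -1.24). These included the galactose-binding lectins *Clec10a* (ENSMUSG00000000318, chromosome 11, 70156197 to 70170834, plus strand) at 43.4, 54.2 and 0 CPM against 246, 259 and 285 CPM (-2.41 ± 0.28) and *Mgl2* at 149, 171 and 78.1 against 567, 565 and 539.7 CPM (-1.75 ± 0.22), the Fc receptor gamma chain *Fcer1g* (-1.24 ± 0.27) and the mannose receptor *Mrc1* (-1.04 ± 0.30, not called with *Ccr7* at 1 UMI). *Cd209a* (ENSMUSG00000031494, chromosome 8, 3743397 to 3748984, minus strand), a DC-SIGN homologue, was at 242, 42.3 and 0 CPM in members and 476, 405 and 513 CPM in the cDC2 gate (-1.67 ± 0.32), and was detected in 9.80% of members (8.16% after thinning), 69.9% of the cDC2 gate and 11.1% of NK cells. Of 8 Toll-like receptor and adaptor genes, 2 were lower and none higher (median -0.78), among them *Tlr2* (-0.98 ± 0.21), a receptor for bacterial lipoproteins. Of 14 lysosomal genes, 4 were higher and 5 lower (median 0.00). The tetraspanin *Cd63* (ENSMUSG00000025351, chromosome 10, 128900989 to 128912822, plus strand), at 848, 823 and 1198 CPM against 8.97, 15.8 and 10.3 CPM, was higher by 6.43 ± 0.21, with the membrane protein *Lamp1* (1.72 ± 0.15) and the cathepsin inhibitor *Cst3* (1.51 ± 0.22), while the protease *Ctsd* (-1.13 ± 0.20) and the scavenger receptor *Cd68* (-1.37 ± 0.21) were lower. Of 12 sterol genes, 3 were higher and none lower (median 0.15), with the isoprenoid enzyme *Idi1* higher by 1.32 ± 0.26. *Apol7c*, an apolipoprotein of DCs, had 25, 8 and 3 UMIs in members and 1 in the whole cDC2 gate.

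Interferon genes were partly raised. Of 11 type I interferon-stimulated genes, 7 were higher and none lower (median 1.06), and of 9 interferon-γ genes 6 were higher and 1 lower (median 1.34). The type I list summed to 652, 883 and 78.1 CPM in members against 197, 328 and 236 CPM in the cDC2 gate. Its sum was thus lower in members of the *sGsn-/- Clec9a-/-* library. The transcription factor *Irf1*, at 89.8, 113 and 143 CPM (1.10 ± 0.16), and the GTPase *Gbp2* (3.48 ± 0.33) were higher in all 3 libraries, whereas its relative *Gbp7* was lower (-2.32 ± 0.47). The ubiquitin-like *Isg15* (2.04 ± 0.28) and the regulator *Irf7* (1.61 ± 0.31, not called with all *Ccr7*-negative cells as comparison) were higher in 2 of 3 libraries, with 1 and 0 UMIs in the *sGsn-/- Clec9a-/-* members, and the antiviral *Oasl1* was higher by 3.07 ± 0.50, a call lost after thinning and without members that carry *C1qa*, *Siglech* or *Cd7*.

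Of 20 transcription factors of DCs, 11 were higher and 2 lower (median 1.30). *Irf8* (ENSMUSG00000041515, chromosome 8, 120736358 to 120756694, plus strand, overlapping *Gm20388*) was at 549, 551 and 1159 CPM in members against 52.2, 76.5 and 62.4 CPM in the cDC2 gate, and *Batf3* at 171, 198 and 208 against 39.2, 52.4 and 49.8 CPM. Both were higher in members of all 3 libraries (3.47 ± 0.22 and 2.13 ± 0.17, adjusted p = 3.3e-12 and 4.8e-10, quasi-likelihood test in edgeR, adjusted by the Benjamini-Hochberg method), along with their companion *Id2* (2.51 ± 0.19) and the cDC factor *Zbtb46* (1.69 ± 0.21). The cDC2 and monocyte factors *Klf4* (-1.25 ± 0.22) and *Zeb2* (-0.69 ± 0.21, not called without *sGsn-/- Clec9a-/-*) were lower, and *Irf4*, which cDC2s use, was not called, at 47.8, 27.1 and 0 CPM. Among 14 cDC1 genes outside the rule, 3 were higher and 4 lower (median 0.40). The lower ones included *Wdfy4*, needed for cross-presentation (-1.57 ± 0.29), and the lipid hydrolase *Naaa* (-1.21 ± 0.31), and the cDC1 adhesion molecules *Cadm1* and *Itgae* had 3 and 6 UMIs over all members. Of 10 cDC2 genes tested, 3 were higher and 4 lower (median -0.28). The integrin *Itgam* was lower (-1.87 ± 0.24), at 57.9, 62.7 and 0 CPM, whereas the RAB GTPase regulator *Tbc1d4* (ENSMUSG00000033083, chromosome 14, 101442360 to 101609191, minus strand, overlapping *Gm34417*) was at 1840.3, 1606 and 2161 CPM against 83.3, 74.4 and 55.8 CPM (4.73 ± 0.19) and was detected in all 102 members (98.0% after thinning), in 32.4% of the cDC2 gate and in 10.2% of NK cells. *Ccr6*, a receptor for CCL20, was higher by 1.29 ± 0.37 in 2 of 3 libraries, and not without WT or without *sGsn-/-*.

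Receptors for chemokines were mixed. Of 8 chemokine receptor and trafficking genes besides *Ccr7*, 4 were higher and 3 lower (median 0.31). The inflammatory receptors *Ccr1* (-1.40 ± 0.24) and *Ccr2* (-1.61 ± 0.27) were among the lower ones. *Gpr183* (ENSMUSG00000051212, chromosome 14, 121952551 to 121965195, minus strand, overlapping *Ubac2*), the oxysterol receptor that positions DCs in lymphoid tissue, was at 363, 371 and 351 CPM against 229.9, 229 and 216 CPM (0.80 ± 0.19, not called without *sGsn-/-*). *Cxcr4* (0.50 ± 0.19) lost its call in 10 alternatives, among them the fit with the library as a block, and the egress receptor *S1pr1* rested on 10 UMIs in members and 3 in the cDC2 gate, with a call that ended without *sGsn-/-*.

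Outside these lists, *Fabp5* (ENSMUSG00000027533, chromosome 3, 10012548 to 10016607, plus strand), a fatty acid-binding protein, was at 3704, 3844 and 6496 CPM in members against 56.2, 60.6 and 50.9 CPM in the cDC2 gate (6.37 ± 0.25, higher in all 3 libraries), and the nuclear RNA *Malat1* was higher by 0.92 ± 0.20. The 5 largest fitted values among called genes had no UMI in the cDC2 gate, so only lower bounds are given and their order is not known. These were the fatty acid carrier *Fabp4* (at least 252-fold), the chaperone *Clu* (at least 618-fold), the Arp2/3 inhibitor *Arpin* (at least 199-fold), the predicted gene *Gm10851* (at least 107-fold) and the WNT antagonist *Dkk2* (at least 93.7-fold). The 5 smallest fitted values had no UMI in members, and their bounds lie below the measured fall of *March1* (-3.11 in log2), so they are not shown to be the strongest falls. These were the mitotic genes *Kif20b*, *Bub1b* and *Dlgap5* (at least 4.82, 4.33 and 3.303-fold lower), the phosphatase regulator *Ppp1r3d* (at least 3.41-fold) and the lectin *Asgr2* (at least 3.11-fold), the last 2 not called without WT. Of 7 cell cycle genes tested, 5 were lower and none higher (median -1.13), with the proliferation marker *Mki67* at -1.59 ± 0.30 and the topoisomerase *Top2a* at -1.66 ± 0.27. The list summed to 242, 225 and 143 CPM against 498, 507 and 542 CPM. Of 8 stress and dissociation genes, 4 were lower, none higher and 4 not called (median -0.68). The early genes *Fos* (-1.27 ± 0.27) and *Egr1* (-1.44 ± 0.33) were among the lower ones. The list summed to 3051, 4579 and 2005 CPM against 5819, 6727 and 6009 CPM.

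Markers of other cells were read beside these results, and their part in the result was not tested. Of 13 monocyte and macrophage markers tested, 4 were higher and 4 lower (median 0.02), and they summed to 1612, 3086 and 65.1 CPM in members against 1482, 1580 and 1509 CPM in a cDC2 gate without *C1qa*. *Apoe*, the lipid carrier and most abundant of them, was at 725, 1198 and 0 CPM (4.02 ± 0.49), the complement genes *C1qb* (3.16 ± 0.46) and *C1qc* (3.88 ± 0.44) and the membrane protein *Ms4a7* (3.28 ± 0.51) were higher in 2 of 3 libraries, *C1qb* and *Ms4a7* not with DESeq2, and the LPS coreceptor *Cd14* (-1.28 ± 0.25) and the CSF1 receptor *Csf1r* (-0.95 ± 0.28, not called without WT) were lower. Of 824 C1q UMIs 97.6% lay in 10 members. With all *Ccr7*-negative cells outside the table as comparison, *C1qb* and *C1qc* were called lower, and *Apoe* (-0.22) and *Ms4a7* were not called. *Apoe* also lost its call without cells with 10 or more C1q UMIs and without members that carry *C1qa*, *Siglech* or *Cd7*. Of 3 NK cell markers tested 1 was lower and none higher (median 0.48), with sums of 301, 273 and 325 against 720, 696 and 706 CPM, nearly all from the lectin-like receptor *Klrd1* (ENSMUSG00000030165, chromosome 6, 129591782 to 129598775, plus strand, -1.24 ± 0.23, not called against all *Ccr7*-negative cells), and *Prf1* was at 0. T cell markers summed to 7.24, 40.7 and 0 CPM (0 of 1 called, *Trac* most abundant). B cell markers summed to 34.8, 25.4 and 0 CPM with *Ighm* lower (-0.89 ± 0.30, call lost in 3 alternatives) and *Cd79a* and *Iglc2* at 0. Pre-cDC markers summed to 114, 30.5 and 0 CPM (0 of 4 called, *Cd7* most abundant) and plasmacytoid markers to 433, 357 and 299 CPM (1 of 3 higher, *Bst2* at 0.46 ± 0.17, a call that 12 alternatives ended or turned), with *Ly6d* at 0. Langerhans cell genes gave 110.1, 79.6 and 0 CPM (1 of 3 lower, the cadherin *Cdh1* at -2.41 ± 0.29), most from *Mfge8*. Markers of neutrophils, mast cells and basophils summed to 1.45, 3.39 and 0 CPM, mostly *Csf3r* with *S100a8* at 0, and those of tumour and stroma to 5.79, 3.39 and 0 CPM, mostly *Pecam1* with *Col1a1* at 0, and none of either list could be tested. Genes of ILCs, with *Il22* at 0, summed to 531, 527 and 495 CPM, of which the IL-7 receptor gene *Il7r* (ENSMUSG00000003882, chromosome 15, 9505788 to 9530176, minus strand) made up most, at 419.9, 385 and 482 CPM against 98.02, 100.2 and 113 CPM (2.10 ± 0.13, 1 of 2 genes tested).

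The changes that go with *Ccr7* and *Fscn1* were then compared between cells outside and inside the cDC1s. The deposited table sets which cells are inside, so levels of cDC1 genes in *Ccr7*-negative cells differ between the sides by choice. *Irf8* and *Batf3* were high in cDC1s with and without *Ccr7* and were raised with *Ccr7* outside them. The difference between the gate effects (outside minus inside) was called for 897 of 9091 genes (9.87%), 364 (4.0%) with the more positive effect outside and 533 (5.86%) with the more positive effect inside. Leaving out *sGsn-/-* gave 133 and 401, leaving out WT 156 and 262, and thinning all cells to 4000 UMIs 143 and 289.

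*Irf8* went from 52.2, 76.5 and 62.4 CPM in the cDC2 gate to 549, 551 and 1159 CPM in members, but from 1229.8, 1220.2 and 1202 CPM in *Ccr7*-negative to 902, 800.1 and 724 CPM in *Ccr7+* cDC1s. *Batf3* was at 265, 273 and 265 CPM in *Ccr7*-negative and 260.0, 280.1 and 208 CPM in *Ccr7+* cDC1s. Their differences were 4.01 ± 0.29 and 2.11 ± 0.22 in log2 (adjusted p = 5.1e-10 and 3.3e-07, quasi-likelihood test in edgeR, adjusted by the Benjamini-Hochberg method), with the same sign in all 3 libraries. Both genes mark cDC1s and so start high inside and low outside by the choice of cells. These tests therefore do not stand apart from that choice. Of 20 transcription factors, 4 had the more positive effect outside, *Zbtb46* (1.11 ± 0.26, not called without WT) and *Id2* (0.86 ± 0.25, call lost in 4 alternatives) being the others, and 5 the more positive effect inside, among them *Relb* (-1.08 ± 0.20) and *Irf4* (-2.79 ± 0.55, not called after thinning). Of 14 cDC1 genes outside the rule, 8 had the more positive effect outside and none inside. These genes start high inside and low outside by the choice of cells, so this count does not stand apart from that choice. They included the endosomal GTPase *Rab7b* (3.94 ± 0.53), *Naaa* (2.19 ± 0.42) and *Wdfy4* (1.61 ± 0.44), whose calls were each lost in 2 or more alternatives.

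Among products of mature DCs, *Il12b* (2.24 ± 0.60), *Cd200* (2.60 ± 0.35), *Bcl2l14* (2.03 ± 0.55) and *Tbc1d4* (1.24 ± 0.24) had the more positive effect outside cDC1s, as did *Cxcl9* (4.18 ± 0.62, not called with DESeq2) and *Gpr183* (1.31 ± 0.29, not called without *sGsn-/-*). The calls of *Il12b* and *Bcl2l14* were lost in 5 and 4 alternatives. Both had few UMIs in the cDC2 gate, where *Il12b* was detected in 0.418% of cells against 3.51% of *Ccr7*-negative cDC1s. Their levels were lower in members than in *Ccr7+* cDC1s (log2 ratios -1.81 and -2.93), so the more positive effect outside is not a higher level. *Socs2* (-4.50 ± 0.33), *Cd63* (-3.05 ± 0.30) and *Il7r* (-4.17 ± 0.26) had the more positive effect inside, where *Ccr7*-negative cDC1s had means of 0.628, 1.77 and 1.47 CPM. The largest adjusted p of these 3 was 9.0e-08 in the quasi-likelihood test in edgeR, adjusted by the Benjamini-Hochberg method, with the same sign in all 3 libraries. The costimulatory *Tnfsf4* (-4.02 ± 0.86), *Tnfrsf4* (-3.19 ± 0.92) and *Cd80* (-2.61 ± 0.21) went the same way, the first 2 with calls lost in 3 and 4 alternatives, as part of 6 of 12 costimulatory genes and none opposite. So did 11 of 14 NF-κB genes with none opposite, among them *Nfkbia* (-1.80 ± 0.27) and its relative *Nfkbie* (-1.99 ± 0.20). The other lists gave, outside and inside, 2 and 3 of 11 chemokines, 2 and 2 of 9 cytokines, 1 and 5 of 16 inhibitory genes, 1 and 3 of 9 actin genes, 1 and 2 of 10 survival genes, 2 and 2 of 11 class I genes, 1 and 0 of 12 class II genes and 2 and 4 of 14 lysosomal genes. In the same order, 1 and 3 of 13 uptake genes, 1 and 6 of 10 cDC2 genes, 1 and 1 of 11 type I interferon genes and 3 and 3 of 9 interferon-γ genes differed, as did 1 and 4 of 8 chemokine receptor and trafficking genes, 0 and 2 of 5 type 2 genes, 0 and 2 of 2 ILC genes, 1 and 1 of 8 Toll-like receptor genes, 0 and 1 of 12 sterol genes, 0 and 1 of 13 macrophage genes, 0 and 1 of 3 Langerhans cell genes, 1 and 0 of 1 B cell gene, 0 and 1 of 7 cell cycle genes and 1 and 0 of 8 stress genes. None of 4 pre-cDC, 3 plasmacytoid, 3 NK cell and 1 T cell genes did.

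**Figure D3:**
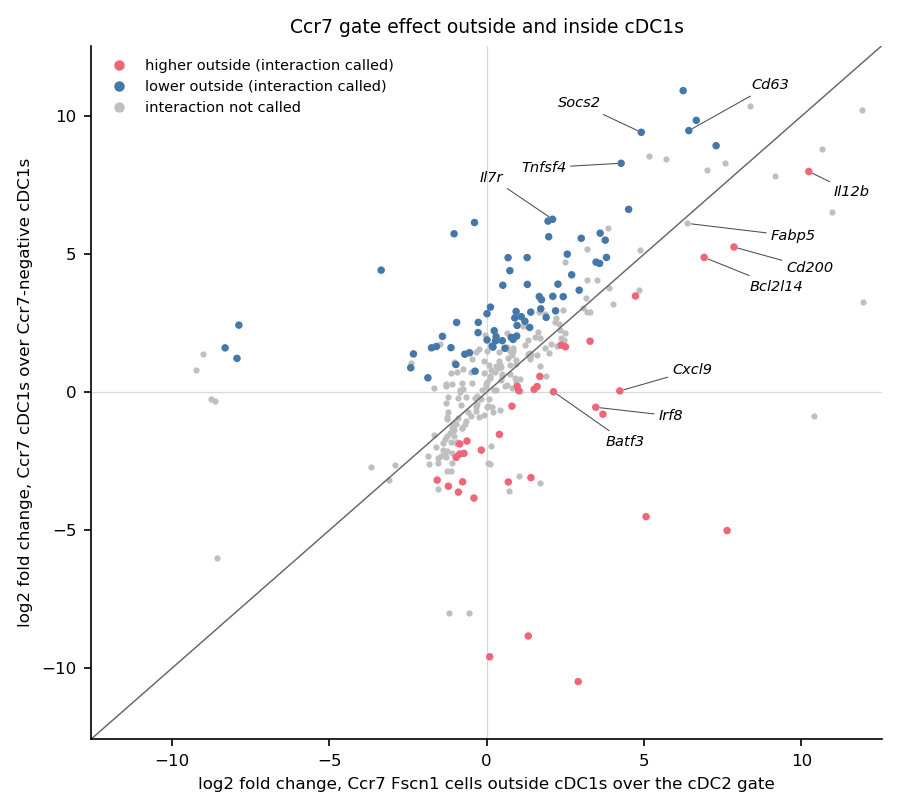
Log2 fold change of the *Ccr7* gate outside cDC1s (horizontal) and inside cDC1s (vertical) for the named genes, coloured by the call of the difference, with the line of equal effects. *Irf8* (4.01) and *Socs2* (-4.50) lie far from that line on opposite sides.

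Placed beside *Ccr7+* cDC1s, the members had less *Il12b*, *Tnfrsf4*, *Bcl2l14* and class I transcript and more *Fabp5*, *Il7r*, *Il2ra*, *Klrd1* and class II beta chain. No test was made, because the cDC1 table was itself drawn from these counts. Of 2856 genes at 50 CPM or more in either mean, the values of the 3 libraries did not overlap for 980 (34.3%), 471 (16.5%) higher and 509 (17.8%) lower in members. Those counts came with 3 values a side, and with 2 values a side 1455 to 1847 genes did not overlap. *Fabp5* was at 493, 628 and 318 CPM in *Ccr7+* cDC1s (log2 ratio of members to them 3.29), *Il7r* at 96.8, 109.8 and 197 CPM (1.67), *Il2ra* at 41.2, 33.6 and 0 CPM (2.31) and *Tnfsf4* at 35.9, 20.2 and 0 CPM (2.72). *Klrd1* was at 100.4, 24.7 and 0 CPM (2.72), *Gpr183* at 170.4, 103 and 10.96 CPM (1.93), *Mgl2* at 48.4, 4.48 and 0 CPM (2.91) and *H2-Ab1* at 3506, 1212 and 1096 CPM (1.16). *Tbc1d4* was slightly higher in members (0.34), the lymphotoxin subunit *Ltb* more so (2.97), and the neutrophil chemoattractant *Cxcl2* (ENSMUSG00000058427, chromosome 5, 90903871 to 90905938, plus strand) was at 792, 1835 and 1067 CPM in members and 118, 38.1 and 87.7 CPM in *Ccr7+* cDC1s (3.92). Of the cell type lists, the NK cell gene *Klrd1*, the ILC gene *Il7r* and 3 of 5 listed cDC2 genes (*Mgl2*, *Ltb* and *Tbc1d4*) stood higher here, with 1 of 5 cDC2 genes lower. *Tbc1d4* was far higher in members than in the cDC2 gate (log2 fold change 4.73), so here it does not mark that gate. Of 5 cDC1 genes outside the rule, 2 (*Batf3* and *Cd24a*) were lower and none higher, and of 2 plasmacytoid genes *Bst2* was lower. Macrophage markers summed to 1162, 220 and 54.8 CPM in *Ccr7+* cDC1s, with no non-overlapping gene of 6.

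Lower in members were *Il12b*, at 2764, 2127 and 2632 CPM in *Ccr7+* cDC1s (-1.81), *Bcl2l14* at 459, 601 and 537 CPM (-2.93), *Tnfrsf4* at 251, 374 and 362 CPM (-2.54) and *Cd274* at 421, 421 and 296 CPM (-0.85). *Il15* (-1.61), *Il15ra* (-1.79), *Cd70* (-2.26) and *Socs2* (-0.51) were lower as well. All 10 class I genes at this level were lower, *B2m* (-0.97), *H2-K1* (-0.73), *Tap1* (-1.49) and *Nlrc5* (-1.65) among them, against 4 of 10 class II genes higher. *Irf1* (-1.67), *Isg15* (-1.30) and *Relb* (-0.36) were lower, with 4 of 14 NF-κB genes lower and none higher. By list, higher and lower, 2 and 0 of 11 chemokines, 1 and 3 of 5 cytokines, 2 and 2 of 12 costimulatory genes and 1 and 3 of 10 inhibitory genes did not overlap. Actin genes gave 0 and 4 of 8, sterol genes 0 and 5 of 9 and transcription factors 0 and 4 of 17. Lysosomal genes gave 2 and 3 of 12, type I interferon genes 0 and 2 of 4 and interferon-γ genes 0 and 3 of 4. Uptake genes gave 1 and 0 of 6, chemokine receptor genes 2 and 0 of 4 and survival genes 0 and 1 of 9. Type 2 genes gave 1 and 0 of 5, cell cycle genes 1 and 0 of 2 and stress genes 0 and 1 of 8. Of the 5 largest ratios, 4 rested on few UMIs in cDC1s and the other was that of *Cxcl2*. The haem oxygenase *Hmox1* had 3, 19 and 30 UMIs in members and 1, 0 and 0 in *Ccr7+* cDC1s, the sodium pump subunit *Atp1b1* 13, 8 and 15 and none, the adhesion gene *Ceacam15* 26, 22 and 11 and 0, 4 and 0, and *Fabp4* 21, 67 and 1 and 0, 0 and 1. The 5 smallest were the disulphide isomerase *Txndc16* (-5.56, at 122, 143 and 1009 CPM in *Ccr7+* cDC1s), the protease inhibitor *Serpinb1a* (-4.34), the GTPase *Gbp4* (-4.28), the actin filament protein *Afap1* (-3.86) and the FGF-binding *Fgfbp3* (-3.68). Without *sGsn-/- Clec9a-/-*, *Txndc16* was at -3.29, and without *sGsn-/-*, *Fgfbp3* was at -6.87. Without WT the log2 ratios of *Klrd1*, *Mgl2* and *Tnfsf4* were 4.43, 5.80 and 4.004, and thinning gave -2.14 for *Irf1* and -3.03 for *Cd70*. Over the alternatives the log2 ratio ran from -2.11 to -0.83 for *Il15*, from -4.98 to -2.67 for *Serpinb1a*, from -5.54 to -3.53 for *Gbp4*, from -4.69 to -3.29 for *Afap1*, from -1.86 to -0.91 for *Tap1*, from -2.02 to -0.88 for *Isg15*, from 1.43 to 2.66 for *Gpr183*, from 0.95 to 1.76 for *H2-Ab1* and from 1.13 to 4.004 for *Tnfsf4*.

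*Ccl22*, *Il12b* and *Cd40* were found in members of every genotype (6, 3 and 7 of 9 *sGsn-/- Clec9a-/-* members), and single cells set many of the largest ratios. WT and *sGsn-/-* members differed little, whereas the 9 *sGsn-/- Clec9a-/-* members differed more, at a depth where 1 UMI is 13.02 CPM. From WT to *sGsn-/-*, 98 (3.6%) of 2722 genes at 50 CPM or more passed 2-fold, 64 (2.35%) higher and 34 (1.25%) lower, with a median absolute log2 ratio of 0.239. From *sGsn-/-* to *sGsn-/- Clec9a-/-* it was 886 (28.3%) of 3131, 475 (15.2%) higher and 411 (13.1%) lower, with a median of 0.581, and 75 genes had no UMI in the *sGsn-/- Clec9a-/-* members. *Ccl22* was 1.85 (95% interval 1.68 to 2.03) times as high in *sGsn-/-* as in WT members and 1.48 (95% interval 1.27 to 1.72) times as high in *sGsn-/- Clec9a-/-* as in *sGsn-/-*. *Ccl5* had ratios of 0.854 (95% interval 0.814 to 0.895) and 0.875 (95% interval 0.7796 to 0.979), *Il12b* of 0.884 (95% interval 0.762 to 1.02) and 1.86 (95% interval 1.43 to 2.39), *Tnfsf4* of 1.65 (95% interval 1.02 to 2.67) and 3.24 (95% interval 1.79 to 5.66), and *Cd40* of 0.774 (95% interval 0.588 to 1.01) and 3.59 (95% interval 2.44 to 5.21). *Cd274* had ratios of 1.33 (95% interval 1.05 to 1.69) and 0.708 (95% interval 0.378 to 1.22). The *sGsn-/- Clec9a-/-* values of these genes rest on few cells. For each gene the *sGsn-/- Clec9a-/-* member with most of its UMIs, not the same cell for all, held 91.5% for *Ccl22*, 77.9% for *Il12b*, 74.4% for *Cd40*, all 19 UMIs for *Tnfsf4*, and 40.7% and 50% for *Ccl5* and *Cd274*. The *sGsn-/- Clec9a-/-* members with *Il12b* had no UMI of *Tnfsf4*. Intervals here and below hold counting error alone and not the spread between cells.

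The largest ratios from WT to *sGsn-/-* were those of the monocyte chemokines *Ccl12* (1 and 89 UMIs, all 89 in 1 cell, 104, 95% interval 18.2 to 4158) and *Ccl7* (3 and 45 UMIs, 97.8% in 1 cell, 17.5, 95% interval 5.63 to 88.3), the redox gene *Prxl2c* (7.21, 95% interval 3.02 to 20.9, in 6 and 13 cells), the leukotriene synthase *Ltc4s* (6.69, 95% interval 2.96 to 17.7, in 4 and 9 cells) and the cell cycle regulator *Rgcc* (4.83, 95% interval 2.19 to 12.1, in 5 and 7 cells). The smallest were the resistin-like *Retnla* (133 and 1 UMIs, 95.5% in 1 cell, 0.008796, 95% interval 0.000221 to 0.0499), the surface antigen *Ly6a* (135 UMIs in 10 cells and 2 UMIs, 0.0173, 95% interval 0.00208 to 0.0638), the eosinophil ribonuclease *Ear2* (37 and 3 UMIs, 73.0% in 1 cell, 0.0949, 95% interval 0.0187 to 0.2996), the resistin gene *Retn* (37 and 0 UMIs, 94.6% in 1 cell, a ratio of at most 0.0949 at a floor of 3 UMIs) and *Cd209a* (0.175, 95% interval 0.1102 to 0.268, in 7 and 3 cells). From *sGsn-/-* to *sGsn-/- Clec9a-/-*, each of the 5 largest ratios came from 1 *sGsn-/- Clec9a-/-* cell, not shown to be the same cell, the tRNA-linked *Yae1d1* (1 and 24 UMIs, 184, 95% interval 30.1 to 7585), the lipid receptor *Gpr18* (1 and 6 UMIs, 46.1, 95% interval 5.59 to 2121), the chemokine *Cxcl1* (29.8, 95% interval 16.98 to 55.3), the redox gene *Srxn1* (19.2, 95% interval 8.91 to 44.8) and *Atp1b1* (14.4, 95% interval 5.73 to 39.2). The smallest were *Apoe* (707 UMIs in 7 cells and 0, a ratio of at most 0.0326), *C1qb* (298 and 1 UMIs, 0.0258, 95% interval 0.000651 to 0.145), *Isg15* (258 UMIs in 21 cells and 1, 0.0298, 95% interval 0.000751 to 0.167), *Egr1* (185 and 1, 0.0415, 95% interval 0.00105 to 0.234) and *Cd14* (162 and 1, 0.0474, 95% interval 0.00119 to 0.268). Without the 5 members that had 10 or more C1q UMIs, an alternative added after the data were seen, the log2 ratios of *Ccl12* and *Ccl7* were 0.30 and 0.88, that of *Apoe* from *sGsn-/-* to *sGsn-/- Clec9a-/-* was -1.21 and that of *C1qb* -1.11. Without scored doublets that of *Cd209a* was -0.67. With *Ccr7* at 1 or more UMIs those of *Retnla*, *Ly6a* and *Egr1* were -1.11, -2.53 and -0.78, and with *Ccr7* at 6 and *Fscn1* at 2 or more that of *Rgcc* was 0.31.

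By variance over mean, single members differed most from each other in *Ccl5*. This ranking covers only genes with a UMI in 10% or more of cells of every library. After thinning of the 98 members with at least 4000 UMIs, the median variance over mean of these 2711 genes was 1.16. *Ccl5* stood furthest from it at 89.4, with a median of 7 UMIs, a maximum of 280 and 56.8% of its UMIs in 10 cells, followed by *Malat1* (56.1), the ribosomal RNA-like *Gm42418* (48.2), *Cd74* (36.1) and *Cst3* (26.98). *Cxcl2* (22.2, 76.6% of UMIs in 10 cells), the lysozyme *Lyz2* (21.5, 90.7%), the class II chains *H2-Eb1* (20.9) and *H2-Ab1* (19.5) and *Fabp5* (20.5) completed the 10 most variable. Members with most and with no *Il12b* differed in some genes in every library, with no test made. *Irf8* was at 749, 883 and 2236 CPM in the 38 cells with 3 or more UMIs of *Il12b* (20, 15 and 3) and at 399, 346 and 417 CPM in the 51 cells without it (24, 21 and 6), and *Bcl2l14* at 86.4, 149 and 128 CPM against 42.2, 33.3 and 21.97 CPM. In the 13 members with 1 or 2 UMIs of *Il12b*, *Irf8* was at 315 CPM and *Bcl2l14* at 44.02 CPM, against 381 and 37.6 CPM over all cells without it. The gate genes were higher too in cells with 3 or more UMIs of *Il12b* than in those without it. *Ccr7* was at 2743, 2827 and 6453 CPM against 1869, 2419 and 3318 CPM. *Fscn1* was at 1411, 1367 and 1981 CPM against 929, 945 and 1296 CPM. *Cd63* and *Cxcl2* were also higher in every library, and *Socs2* was lower in every library. *Ccl22*, *Ccl5* and *Tnfsf4* went in different directions in different libraries. Pooled over libraries, the cells with most *Il12b* also had more *Apoe* (1908 against 215 CPM) and *C1qa* (451 against 43.6 CPM) and included 5 scored doublets against 2. By library, *Apoe* was at 1440, 2674 and 0 CPM against 267, 175 and 0 CPM. A few cells held much of it, since the 5 members with 10 or more C1q UMIs had *Apoe* at 6563 CPM, against 890 CPM in all members. In the 72 members without any C1q UMI *Ccl22* was at 1444 CPM, *Il12b* at 602 CPM, *Cd63* at 1001 CPM and *Apoe* at 43.7 CPM.

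The thresholds were checked at their edges, with no test. *Ccl22* was at 125 CPM in 3 members with exactly 3 UMIs of *Ccr7* and at 715 CPM in 7 cells with exactly 2, against 1480.3 CPM in all members. In 10 members with exactly 1 UMI of *Fscn1* it was at 1604 CPM, and in 179 cells with *Ccr7* but no *Fscn1* at 376 CPM, beside 347 CPM of *C1qa*. Doublets scored among the 6% highest of each library were 7 members (6.86%), 17 cells of the cDC2 gate (1.78%) and 4 *Ccr7+* cDC1s (4.44%). They were kept, and leaving them out is among the alternatives.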

How the data were processed

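Single cells of 3 10x libraries were measured. The deposited matrices hold UMI counts that the authors made with Cell Ranger 6.0.1, and the deposited table assigns 5806 cDC1s to clusters made with Seurat (version 4.0.0 in the labels, version 3 under R 4.0.0 in the paper). The rule for the members and the gene lists were chosen with earlier results of these data known. UMIs were summed per gate and library (12 sums) with Python 3.11.15, numpy 2.4.6, scipy 1.17.1 and pandas 2.3.3, and tested in 1 fit (edgeR 4.0.16 in R 4.3.3, TMM, filterByExpr, quasi-likelihood test, gate as the only factor). DESeq2 1.42.0 served as an alternative, and Scrublet in scanpy 1.11.5 scored doublets. Gate genes are left out of all counts. Symbols shared by several genes (38) carry the Ensembl ID, and gene coordinates are those of GENCODE M21. Named are the genes of the rule, gates and lists, the 5 largest and 5 smallest values of each comparison as fitted or measured, and the 10 most variable genes. Members and cDC2 gate of 1 library come from the same pool, and their residuals correlated by 0.024, 0.031 and -0.0024, within a range of -0.0266 to 0.168 over all pairs of gates from the same library. The lists cover chemokines and their receptors, cytokines, costimulation, inhibition, type 2 responses, actin, NF-κB, survival, MHC classes I and II, uptake, Toll-like receptors, interferons, lysosomes, sterols, transcription factors, cell types, cell cycle and stress.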

Additional observations from a re-analysis of the deposited data

Results flagged for a closer look

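The test of the difference between the *Ccr7* gate effects outside and inside cDC1s picked out the values given here, as log2 of outside over inside. A positive value means the more positive effect outside. The causes were not tested.

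The 5 largest differences, *Ctla4* (13.39), *Atp1b1* (12.65), *Treml4* (10.15), *Noc3l* (9.68) and *Fam178b* (9.57), have no UMI in *Ccr7+* cDC1s, and so they are fitted values with no upper bound. In members these genes had 6, 36, 8, 15 and 18 UMIs. Of the 5 smallest, *Cnr2* (-10.3), *Cdc6* (-9.92) and *Rufy2* (-9.16) have no UMI in members, and *Cxcl14* (-7.77) and *Src* (-6.77) have 2 and 8. *Cdc6* lost its call with the library as a block, and of these 10 genes *Src* alone kept its call in every alternative in which it was tested.

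Genes of cDC1s and of DC identity gave *Irf8* 4.01, *Batf3* 2.11, *Zbtb46* 1.11, *Id2* 0.86, *Rab7b* 3.94, *Naaa* 2.19, *Wdfy4* 1.61 and *Irf4* -2.79. Genes of the cDC2, macrophage and Langerhans cell lists gave *Tbc1d4* 1.24, *Mgl2* -3.36, *Clec10a* -3.3, *Csf1r* -3.48 and *Mfge8* -6.53. *Mgl2* and *Csf1r* lost their calls without WT and after thinning. *Clec10a* lost its call with DESeq2 and turned to 6.32 without WT. Secreted factors gave *Il12b* 2.24, *Cxcl9* 4.18, *Ccl5* -1.64, *Ccl17* -1.55 and *Cxcl16* -1.5, with *Ccl17* not called with DESeq2 or without WT and *Ccl5* not without *sGsn-/- Clec9a-/-*. Surface molecules gave *Cd200* 2.6, *Gpr183* 1.31, *Il7r* -4.17, *Il2ra* -2.44, *Tnfsf4* -4.02, *Cd80* -2.61, *Tnfrsf4* -3.19 and *Cd274* -1.08. Signalling, survival and lysosomal genes gave *Bcl2l14* 2.03, *Socs2* -4.5, *Nfkbia* -1.8, *Nfkbie* -1.99, *Relb* -1.08, *Irf1* -1.64, *Cd63* -3.05 and *Lgmn* -3.36. Class I genes gave *B2m* -1.08, *H2-K1* -1.21 and *Psmb9* 0.96, with *B2m* and *Psmb9* not called without *sGsn-/-*.

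Beside *Src*, the genes that kept their calls in every alternative in which they were tested were *Irf8*, *Batf3*, *Tbc1d4*, *Mfge8*, *Cxcl16*, *Cd200*, *Il7r*, *Il2ra*, *Cd80*, *Socs2*, *Nfkbia*, *Nfkbie*, *Relb*, *Irf1*, *Cd63*, *Lgmn* and *H2-K1*. The other 29 did not. For *Irf8* and *Batf3* the starting levels outside and inside differ by the choice of cells, so their kept calls do not stand apart from it.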

How the results depend on the processing

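Each genotype is 1 library, the *sGsn-/- Clec9a-/-* members are 9 cells, and pooling and genotype cannot be told apart, so no difference between genotypes has a replicate. Of 120 genes named beside the cDC2 gate 93 kept their call in every alternative that tested them, and of 47 genes named for the difference of gate effects 18 did. Adding the library as a block ended the calls of *Cxcr4*, *Bst2* and *Cdc6* and of no other named gene. The median log2 fold change of all genes beside the cDC2 gate was -0.06, -0.21 with DESeq2 and -0.18 without TMM. Over the alternatives, log2 fold changes beside the cDC2 gate ran from -4.55 to -1.24 for *Cd209a* and from -4.95 to -0.66 for *Mrc1*. They ran from -5.42 to -1.68 for *Cdh1* and from 5.11 to 9.996 for *Cd70*. All shares stayed inside their counting intervals.

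With 1 library left out, the genes called beside the cDC2 gate ranged from 1916 to 2535 (higher 852 to 1407, lower 897 to 1281), those of the difference of gate effects from 418 to 899 (133 to 415 and 262 to 484) and the non-overlapping genes beside *Ccr7+* cDC1s from 1455 to 1847 (705 to 912 and 738 to 935). Thinning to 4000 UMIs, which tests fewer genes, gave 866 higher beside the cDC2 gate and 432 for the difference (143 and 289). For the difference, *Ccr7* at 1 or more UMIs gave 601 with the more positive effect outside, and leaving out members with *C1qa*, *Siglech* or *Cd7* gave 217, and the cause was not tested. At 100 CPM, where fewer genes enter, 602 did not overlap (281 and 321), and 34 (24 and 10) and 341 (191 and 150) passed 2-fold between genotypes.

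These log2 values turned direction, and the cause was not tested. Beside the cDC2 gate, all *Ccr7*-negative cells as comparison gave *Apoe* -0.22, *C1qb* -1.75, *C1qc* -1.72 and *Bst2* -0.49. Leaving out members with *C1qa*, *Siglech* or *Cd7* gave *S1pr1* -3.67, *C1qb* -0.75 and *C1qc* -2.70, and leaving out cells with 10 or more C1q UMIs, added after the data were seen, gave *C1qb* -0.17 and *C1qc* -0.75. For the difference, *Cxcl14* was 1.64 and *Clec10a* 6.32 without WT, within -14.82 to 1.64 and -4.47 to 6.32 for any 1 library left out, *Cxcl14* 1.02 without the C1q cells and *Rab7b* -0.18 without members that carry *C1qa*, *Siglech* or *Cd7*. From WT to *sGsn-/-*, the log2 ratio of *Ear2* turned from -3.40 to 0.0425 with *Ccr7* at 1 or more UMIs.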

Other observations

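*Aire*, a transcription factor of thymic epithelium, had a UMI in 1 of 102 members, and *Cd207*, which encodes langerin, in 1 as well. *Ccl5* made up as much as 7.14% of the UMIs of a single member. The 3 members with exactly 3 UMIs of *Ccr7* had *Ccl5* at 57986 CPM and *Il12b* at 3511 CPM, with no UMI of *Fabp5*, against 5448, 601 and 3923 CPM in all members.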
